A study of Homo sapiens with 27 samples.

Results

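The comparison described here set 2 populations of the human prostate cancer line PC3 against each other, each carrying a different guide RNA against RIPK2. It used 3 libraries of cells with RIPK2 gRNA 2 and 3 of cells with RIPK2 gRNA 10, out of 27 libraries in the whole series, and covered all 14718 genes that passed a filter on low counts. PC3 is an epithelial line from a bone metastasis of prostate cancer, widely grown as an androgen-independent model. Another PC3 group of 3 libraries carried a control guide and is labelled wild type, and it served as the background level. The same pair of guides was also used in DU145, another prostate cancer line, with 3 libraries each. The labels name no treatment, and they do not say whether a population is a single clone or a pool, nor whether the 3 libraries of a group came from separate cultures. The p-values therefore measure the spread between these libraries, which may be technical.

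RIPK2 encodes a kinase that carries signals from NOD1 and NOD2, cytosolic sensors of bacterial peptidoglycan. It is marked with ubiquitin chains, which recruit the TAK1 and IKK kinase complexes and so lead to NF-kB and stress kinase activity. Since both guides target the same gene, the comparison asks which transcripts differ between knockout populations of one line when the targeted gene is held in common.

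The 9 PC3 libraries held 20170292 to 20650819 counts each, and the spread between replicates was small, with a common biological coefficient of variation of 3.55%. The epithelial keratins KRT8 and KRT18 and the intermediate filament VIM were high in every library. The prostate antigen gene KLK3 had 0 to 1 counts, and KLK2 was not listed among the genes counted, so it has no value. Against what is usual for PC3, TMPRSS2 was present in all 3 groups. CTNNA1, commonly described as lost in PC3, had 18 to 54 counts. Among leukocyte markers, PTPRC had 0 to 6 counts and CD68 0 to 7 over the PC3 libraries, and CD3E was not listed among the genes counted. CPM are counts scaled to the library total. Fibroblast markers summed to 62.6 to 64.5 CPM with the control guide, 55.7 to 66.3 with gRNA 2 and 71.1 to 75.5 with gRNA 10. Nearly all of each sum was COL1A1, above control in both populations, and COL3A1, below control in both. LUM had 0 to 1 counts in every library. PDGFRB had 3 to 8 counts with gRNA 2, 1 to 2 with gRNA 10 and 23 to 27 in the controls. All CPM values that follow are also scaled by TMM library factors. Mitochondrially encoded genes took 4.34 to 4.59% of counts with gRNA 2, 2.90 to 3.20% with gRNA 10 and 4.44 to 4.69% with the control guide. Their part in the results below was not tested. In bulk RNA, fewer cells of a kind and less RNA per cell cannot be told apart.

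RIPK2 transcripts were below the control level in both populations. With gRNA 2 they were 21.7, 20.1 and 20.1 CPM, with gRNA 10 they were 25.5, 28.3 and 27.8 CPM, and with the control guide 59.5, 59.3 and 62.4 CPM. The 3 groups did not overlap. RIPK2 was slightly lower with gRNA 2 than with gRNA 10 (log2 fold change -0.40 ± 0.06 SE, edgeR adjusted p = 1.05e-06). Its DNA sequence and protein were not measured, so the transcript level says nothing about how complete either knockout is. NOD1, one of the sensors upstream, was 5.92 ± 0.544 CPM (SD, n = 3) with gRNA 2 and 2.92 ± 0.193 with gRNA 10, while NOD2 had 0 to 1 counts with gRNA 2, 4 to 7 with gRNA 10 and 0 in the controls and was not tested.

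The 2 populations differed at most genes. A gene is called when its Benjamini-Hochberg adjusted p in edgeR's quasi-likelihood test is below 0.05. Of 14718 genes, 10799 (73.4%) were called, 5366 higher (36.5%) and 5433 lower (36.9%) with gRNA 2. The median log2 fold change over all genes was 0.00. The 3 libraries of one population did not overlap with those of the other at 11022 genes (74.9%). Among the called genes, 2613 (17.8%) differed by a log2 fold change of at least 1, 1193 higher (8.11%) and 1420 lower (9.65%). With at least 10 counts required in every PC3 library, the last total was 1631, since genes absent from one population are then not tested. Against the shared control libraries, 9362 genes (63.6%) were called for gRNA 2 and 10815 (73.5%) for gRNA 10. Changes of at least 1 were 1548 (10.5%) and 2531 (17.2%).

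**Figure D1:**
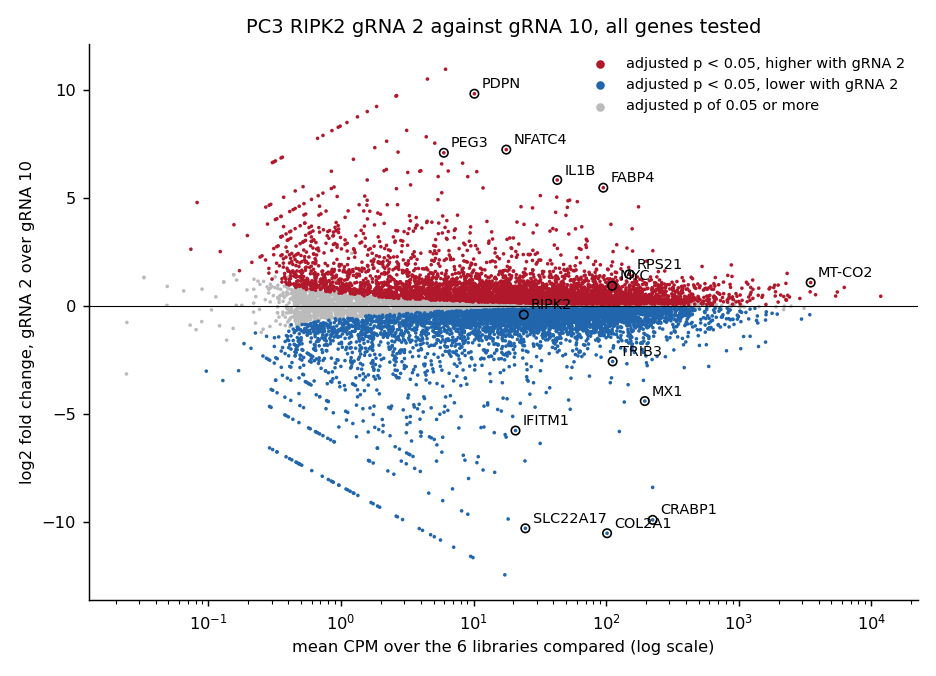
Mean CPM over the 6 libraries compared (x axis, log scale) against the log2 fold change of gRNA 2 over gRNA 10 (y axis), 1 point per gene tested, red where called higher and blue where called lower with gRNA 2, grey where not called. The 10799 called genes lie on both sides in nearly equal numbers, and the lowest labelled point is COL2A1, at 6, 1 and 1 counts with gRNA 2.

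A small set of genes was present in one population and near absent in the other. Counting genes with at most 3 counts in every library of one population and a mean of at least 100 counts in the other, 41 (0.279% of genes tested) were off with gRNA 2 and 14 (0.0951%) were off with gRNA 10. Of the 41, 22 had at most 3 counts in every control library too, and 0 reached a control mean of 100 counts. Of the 14, 2 were at most 3 counts in the controls and 4 had a control mean of at least 100.

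TMPRSS2, a serine protease gene of the prostate epithelium, was not off but was also lower with gRNA 2: 31.1, 31.3 and 29.5 CPM with gRNA 2, 105, 104 and 115 with gRNA 10, and 9.84 to 11.2 in the controls. TMPRSS2 was above its control level in both populations. TMPRSS2 was picked after its values were seen.

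Among the genes off with gRNA 2 were SLC22A17, a receptor for the iron carrier lipocalin 2, and ATP2A3, a calcium pump of the endoplasmic reticulum. Folds of such genes are lower bounds against a floor of 3 counts per library. SLC22A17 had 0, 0 and 2 counts with gRNA 2 against 1006, 1010 and 1044 with gRNA 10, at least 332-fold lower, and 0 in the controls. ATP2A3 had 0, 0 and 2 against 758, 723 and 788, at least 246-fold lower. PDE10A (a cyclic nucleotide phosphodiesterase), MCTP2 (a calcium-binding membrane protein) and the antisense RNA CALML3-AS1 followed, at least 159-fold, 134-fold and 142-fold lower. In all 5 the control means were 3.10 CPM or less, far below gRNA 10. PDE10A and MCTP2 had 58 to 65 and 6 to 12 counts in the controls, so they lay below control with gRNA 2 as well, whereas SLC22A17 and CALML3-AS1 had at most 3 counts in both.

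Off with gRNA 10 were PDPN, which encodes the membrane glycoprotein podoplanin, GLB1L2, ARHGAP22, TSPOAP1, LINC01116 and the cation exporter gene SLC47A1. PDPN had 403, 414 and 416 counts with gRNA 2 against 0, 1 and 0 with gRNA 10, at least 140-fold higher, and 7 to 13 in the controls. GLB1L2 had 282, 218 and 248 counts against 0, at least 85.1-fold higher, and 966 to 1068 in the controls. PDPN was thus above and GLB1L2 below the control level in the population where each was present. In DU145, whose libraries are separate, 24 of the 41 genes off with gRNA 2 were tested, and 13 were called lower and 4 higher with gRNA 2 (background 19.6% and 19.2%). Of the 14 off with gRNA 10, 7 were tested in DU145, 2 called in the same direction as in PC3 and 1 in the opposite one. At least 10 CpG pairs stood in the 250 bases before the start of 16 of 26 matched genes off with gRNA 2 (61.5%) and 6 of 9 off with gRNA 10 (66.7%), against 9624 of 11564 genes (83.2%). Among the former, 0 of 5 matched genes of a chromosome 19 zinc finger cluster had as many.

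The largest differences among genes above this floor were also mostly of an on-and-off kind. COL2A1, the collagen chain of cartilage, had 4313, 4291 and 4040 counts with gRNA 10, 6, 1 and 1 with gRNA 2 and 3 in every control library (edgeR adjusted p = 2.21e-33). CRABP1, a cellular retinoic acid binding protein, was 448 ± 65.8 CPM (SD, n = 3) with gRNA 10 and 0.461 ± 0.228 with gRNA 2, a log2 fold change of -9.91 ± 0.24 SE (adjusted p = 1.44e-08). MUC5B, a gel-forming mucin, was 447 ± 120 CPM with gRNA 10, the widest spread among these genes, and 1.32 ± 0.525 with gRNA 2. ADM2, B3GNT7, DIRAS1, AKR1E2 and PLEKHG1 were at 0.115 to 0.329 CPM with gRNA 2 and 16.6 to 48.5 CPM with gRNA 10. In the opposite direction, NFATC4, a calcineurin-regulated transcription factor, had 709, 718 and 707 counts with gRNA 2 and 5, 5 and 4 with gRNA 10. PEG3, an imprinted zinc finger gene, had 220, 247 and 254 against 4, 1 and 0. TUB, the glutamate transporter SLC1A3, the GABA transporter SLC6A11, HLF and the TGF-beta co-receptor ENG were at 10.7 to 20.9 CPM with gRNA 2 and 0.16 to 0.273 with gRNA 10.

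**Figure D2:**
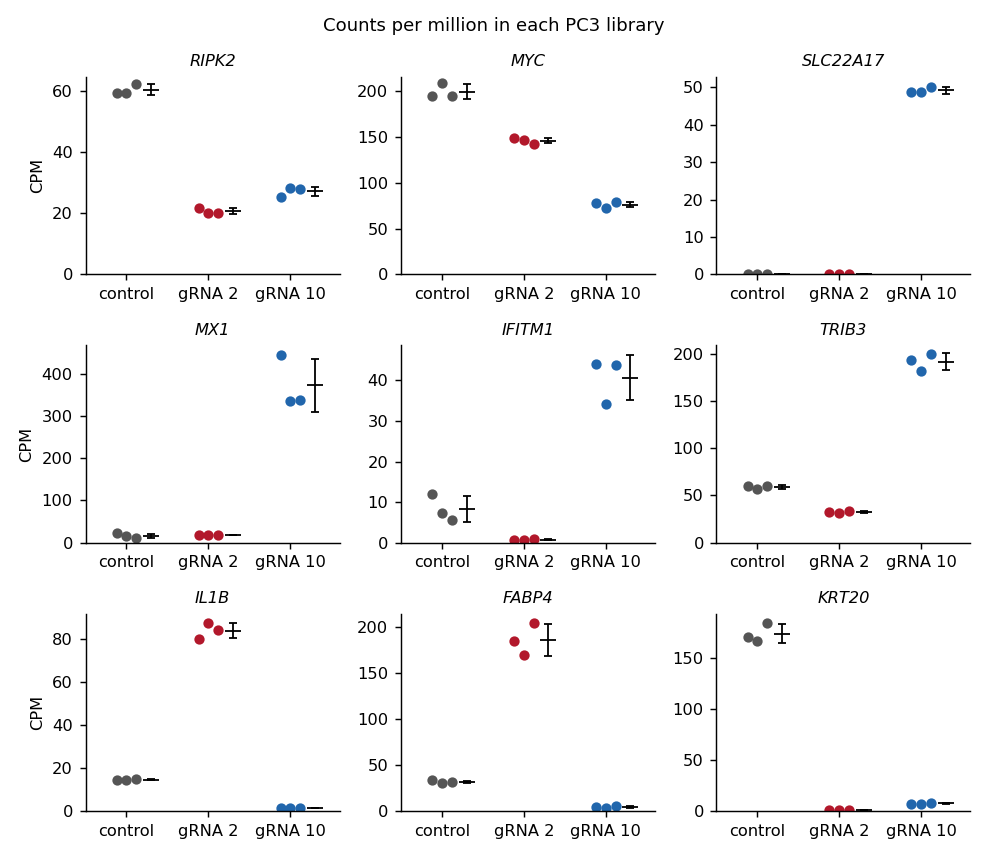
CPM (y axes, from 0) of 9 genes in each PC3 library, 1 point per library, with the mean and SD of the 3 libraries beside them. RIPK2 lies below the control level in both populations, whereas SLC22A17, MX1, IFITM1 and TRIB3 are highest with gRNA 10, and IL1B and FABP4 are highest with gRNA 2.

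Interferon-stimulated genes formed the list with the lowest median among the 37 gene lists described. These genes encode antiviral effectors and are driven by a complex of STAT and IRF factors, which binds paired GAAA letters. All 48 members of the list were tested, and 41 were called lower (85.4%, background 36.9%) and 3 higher with gRNA 2, with a median log2 fold change of -1.76. MX1, a GTPase that blocks virus replication, was 17.05, 18.28 and 17.65 CPM with gRNA 2, 446, 337 and 338 with gRNA 10 and 22.12, 15.42 and 12.02 in the controls (log2 fold change -4.40 ± 0.21 SE, adjusted p = 1.28e-06). So MX1 with gRNA 2 lay within the control range. IFITM1, an inhibitor of virus entry, was 0.69, 0.739 and 0.791 CPM against 44.1, 34.2 and 43.8, and 5.71 to 11.9 in the controls, so it was below the control level in one population and above it in the other. MX2 was also lower with gRNA 2 (log2 fold change -4.79 ± 0.35 SE).

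The list also separated the groups library by library. The median deviation of its members from each gene's mean log2 CPM over the 9 PC3 libraries was -0.79, -0.84 and -0.87 with gRNA 2, 0.95, 0.71 and 0.68 with gRNA 10 and 0.23, 0.02 and -0.22 in the controls. The spread was widest among the controls, and the 3 groups did not overlap. Against the shared controls, the list's median log2 fold change was -0.92 for gRNA 2 and 0.74 for gRNA 10. The members called higher with gRNA 2 were LGALS3BP (326 ± 9.34 CPM against 77.3 ± 6.61, SD, n = 3), OASL (17.3 ± 0.629 against 7.74 ± 0.888) and GBP2 (29.9 ± 2.01 against 14.9 ± 0.992). LGALS3BP encodes a secreted glycoprotein that binds galectin-3, and OASL an antiviral relative of the oligoadenylate synthetases. MX1 and GBP2 were picked after their values were seen.

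The promoters of the interferon list were read for the letters of the STAT-IRF element. RefSeq promoters (GRCh38.p14) were matched by symbol for 37 of the 48 members and for 11564 of all genes tested. Counting either strand of the 250 bases before the start, a pair of GAAA separated by any 2 bases stood in 21 of 37 (56.8%), against 285 of 11564 (2.46%). The promoter of LGALS3BP, which was higher with gRNA 2, held a match as well. A match is a description of letters and not of binding. The windows show the motif in capitals in the 4 members with a match and the largest absolute fold change, all lower with gRNA 2, IFITM1 (chr11:313975-314034, plus strand), BST2 (chr19:17405720-17405779, minus strand), IFI6 (chr1:27672251-27672310, minus strand) and EPSTI1 (chr13:42992257-42992316, minus strand), each 60 bases, 5′ to 3′ on the gene's strand.
IFITM1: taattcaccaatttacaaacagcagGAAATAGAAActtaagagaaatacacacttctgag
BST2: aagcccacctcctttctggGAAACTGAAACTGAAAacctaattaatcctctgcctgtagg
IFI6: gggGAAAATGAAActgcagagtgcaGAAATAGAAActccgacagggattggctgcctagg
EPSTI1: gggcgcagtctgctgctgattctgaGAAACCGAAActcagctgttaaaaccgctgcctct
In IFITM1 and EPSTI1 a single copy stands within 65 and 75 bases of the start, whereas BST2 and IFI6 show 2 copies each, overlapping in BST2. BST2, which tethers budding virus to the cell, was 2.41, 0.986 and 1.78 CPM with gRNA 2 and 38.1, 27.7 and 36.5 with gRNA 10. IFI6 was 16.9, 15.8 and 17.9 CPM against 213, 165 and 217. EPSTI1 was low throughout, at 1, 0 and 5 counts against 28, 25 and 19.

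Amino acid response genes were lower with gRNA 2. ATF4 is a transcription factor made when amino acids run short or protein folding is impaired, and it switches on amino acid synthesis, transport and tRNA charging. Of 36 tested members, 32 were called lower (88.9%, background 36.9%) and 3 higher, with a median of -0.58. TRIB3, a pseudokinase induced by ATF4, was 32.4, 31.2 and 33.4 CPM with gRNA 2 and 193, 182 and 199 with gRNA 10 (log2 fold change -2.57 ± 0.05 SE, adjusted p = 1.73e-28), with controls at 56.3 to 60.3. CBS, of the transsulfuration pathway, was 0.312 ± 0.102 CPM against 7.46 ± 2.63, a wide spread with gRNA 10. GDF15, a secreted stress cytokine, was 67.6 ± 5.23 against 377 ± 31.01 CPM. CTH and ALDH18A1 were among the 3 members called higher (log2 fold changes 0.49 and 0.21), and the highest log2 fold change in the list was 3.45. The list's median was -0.30 for gRNA 2 and 0.29 for gRNA 10 against the shared controls.

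The letters TGATGNAA, a form of the composite element that ATF4 binds with C/EBP proteins, stood in 4 of 30 matched promoters of this list (13.3%), against 173 of 11564 (1.496%). They are shown in capitals for CHAC1 (chr15:40953236-40953295, plus strand), where they lie on the opposite strand, and ASNS (chr7:97872443-97872502, minus strand), the 2 with the largest fold among the 4, both called lower.
CHAC1: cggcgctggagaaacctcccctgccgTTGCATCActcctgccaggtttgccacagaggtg
ASNS: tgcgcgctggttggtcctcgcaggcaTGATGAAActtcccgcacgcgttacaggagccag
CHAC1, which degrades glutathione, was 8.97, 9.22 and 9.10 CPM with gRNA 2 and 21.86, 18.97 and 23.55 with gRNA 10. ASNS, asparagine synthetase, was 44.3, 41.1 and 40.4 CPM against 89.0, 85.0 and 92.4. The populations did not overlap at either gene.

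Genes of the translation machinery differed in the opposite sense. Of 79 cytosolic ribosomal protein genes, 72 were called higher with gRNA 2 (91.1%, background 36.5%) and 2 lower, with a median log2 fold change of 0.78. The median deviation per library was 0.24, 0.18 and 0.33 with gRNA 2, -0.39, -0.53 and -0.48 with gRNA 10 and 0.15 to 0.30 in the controls. Thus gRNA 2 libraries lay at the control level, with a median log2 fold change of 0.03 against the controls for gRNA 2 and -0.70 for gRNA 10. RPS21 was 220 ± 6.12 CPM with gRNA 2 and 79.1 ± 7.52 with gRNA 10 (SD, n = 3). The lower pair, RPL41 and RPS26, were 386 ± 18.2 against 507 ± 26.3 and 168 ± 3.90 against 199 ± 10.8 CPM. Genes of ribosome assembly and MYC output followed, with 36 of 47 called higher, 7 lower and a median of 0.40. MYC itself was 149, 147 and 142 CPM with gRNA 2, 77.4, 72.6 and 78.6 with gRNA 10 and 195 to 208 in the controls, so it was below control in both populations (log2 fold change between them 0.94 ± 0.04 SE, adjusted p = 1.09e-18). All 12 called of the 13 mitochondrially encoded respiratory chain genes were higher with gRNA 2, with a median of 0.47. MT-CO2 led them at a log2 fold change of 1.09 ± 0.06 SE. The 74 respiratory chain genes of the nucleus split, with 35 higher, 19 lower and a median of 0.14.

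NF-kB targets did not share one direction. Of 35 tested, 18 were lower (background 36.9%), 8 higher (background 36.5%) and 9 not called, with a median of -0.45. IL1B, the fever cytokine, was 80.4, 87.6 and 84.3 CPM with gRNA 2, 1.499, 1.541 and 1.346 with gRNA 10 and 14.4 to 14.8 in the controls, so it lay above control in one population and below it in the other. LIF, an IL-6 family cytokine, was 54.9, 59.5 and 53.6 CPM against 370, 331 and 340, with controls at 48.5 to 54.9. The chemokine CXCL1 was 6.56 ± 0.731 CPM with gRNA 2, 18.2 ± 0.965 with gRNA 10 and 18.9 ± 0.652 in the controls. Members of the RIPK2 and NOD complex were called at 18 of 29 (62.1%), below the share of all genes (73.4%), 7 higher and 11 lower. RBCK1 and IKBKG, 2 members tied to linear ubiquitin signalling, were lower with gRNA 2 (log2 fold changes -1.62 and -0.93). SLC15A4, a transporter of NOD ligands, was higher (0.50), while SLC15A3 of the same list was called lower (-1.56). SLC15A3 was picked after its values were seen. MAP2K7, a kinase that activates JNK, differed little (0.11 ± 0.05 SE, adjusted p = 0.0305), and DESeq2 and 3 of the fits without 1 library did not call it.

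**Figure D3:**
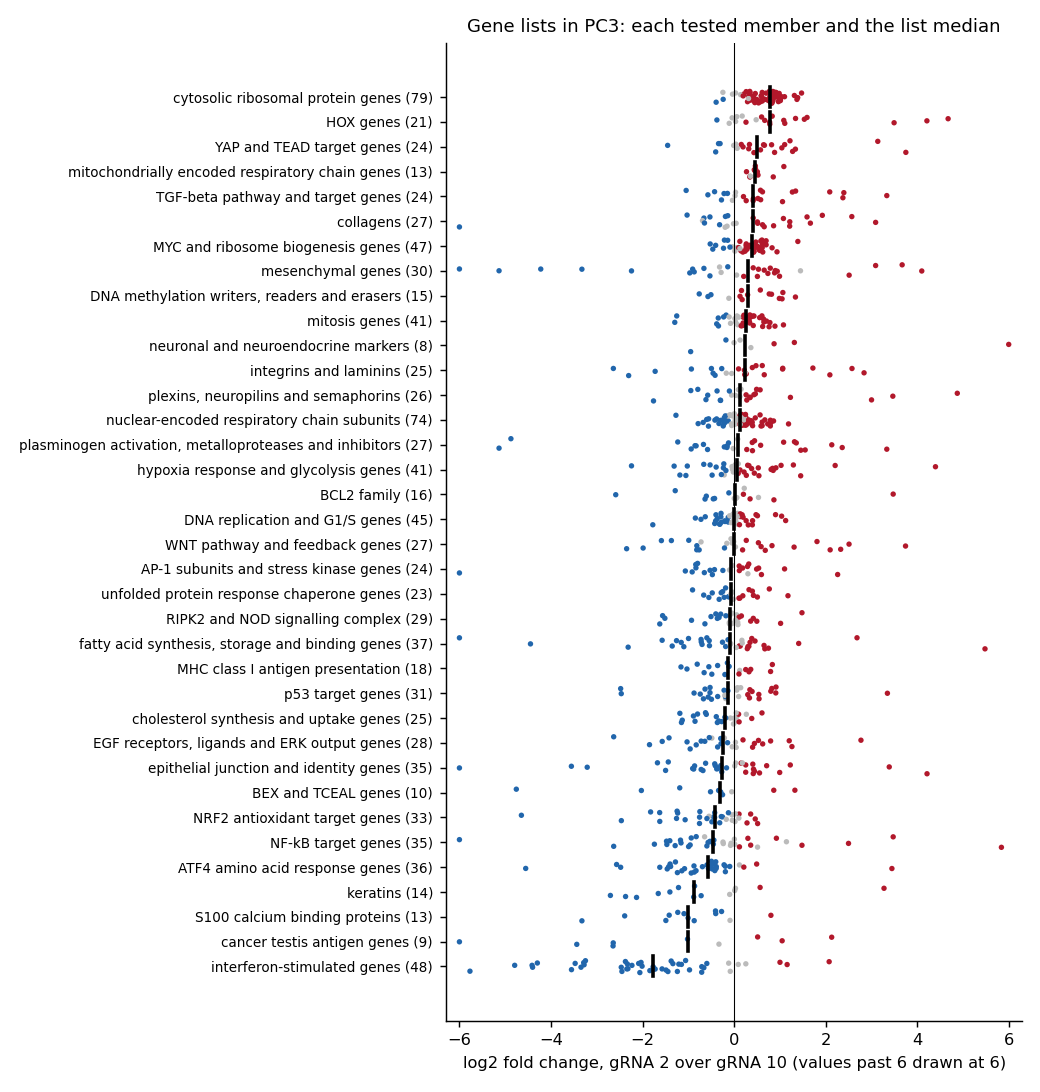
Log2 fold change of gRNA 2 over gRNA 10 (x axis, values past 6 drawn at 6) for each tested member of the gene lists with at least 8 tested genes (number in brackets), red where called higher, blue where called lower and grey where not called, with the list median as a black bar. The interferon list (median -1.76) lies lowest and the ribosomal protein genes (0.78) lie tightly at the top.

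Among genes of cell shape and surroundings, S100 calcium binding proteins were lower with gRNA 2 at 11 of 13 tested and higher at 1 (background 36.9% and 36.5%, median -1.005), with S100A9 at 3.07 ± 0.282 CPM against 16.1 ± 1.26. Keratins were lower at 9 of 14 and higher at 2 (median -0.87). KRT20 was 0.838, 1.23 and 1.29 CPM with gRNA 2, 7.25, 6.89 and 7.79 with gRNA 10 and 167 to 184 in the controls, so both populations had far less of it than the control. KRT75 was 29.7 ± 3.08 CPM against 153 ± 6.49. Epithelial genes were called higher at 13 and lower at 19 of 35, and mesenchymal genes higher at 15 and lower at 11 of 30, so neither list moved one way. ESRP1, an epithelial splicing regulator, had 3, 0 and 4 counts with gRNA 2 and 181, 221 and 250 with gRNA 10. CDH3 (P-cadherin) was 2.58 ± 0.549 CPM against 30.4 ± 0.863. In the other direction, LSR and CLDN1 of the epithelial list were higher with gRNA 2. Their log2 fold changes were 3.35 to 3.44 and 1.18 to 1.31 over 15 alternative fits. ZEB2, a repressor of epithelial genes, was 6.99 ± 0.929 CPM against 0.402 ± 0.101, whereas TWIST2, another regulator of the mesenchymal state, was at 0 counts with gRNA 2 and in the controls and 11.3 ± 1.36 CPM with gRNA 10. LOX of the mesenchymal list was also lower with gRNA 2 (log2 fold change -2.40 to -2.15 over the alternative fits).

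Targets of YAP and TEAD were higher with gRNA 2 at 17 of 24 and lower at 4 (median 0.51), and TGF-beta pathway genes higher at 15 of 24 and lower at 6 (median 0.42), against 36.5% of all genes higher and 36.9% lower. IGFBP3, of the YAP and TEAD list, which binds insulin-like growth factors, was 55.9 ± 0.732 against 4.14 ± 0.374 CPM. Integrins and laminins were higher at 14 of 25 and lower at 8 (median 0.23). Of that list, LAMB3, a laminin-332 chain, was 211 ± 2.18 against 29.5 ± 1.80 CPM, while ITGB3 was lower (log2 fold change -2.75 to -2.55 over 15 alternative fits). The matrix protein TNC, of the mesenchymal list, was 121 ± 7.602 against 9.53 ± 0.550 CPM. HOX genes were called higher at 14 of 21 and lower at 1 (median 0.78). Targets of NRF2, the antioxidant regulator, were lower at 21 of 33 and higher at 5 (median -0.43), with the aldo-keto reductases AKR1C1 and AKR1C2 at log2 fold changes of -2.46 and -4.65. Both lie in a stretch of chromosome 10 whose genes were lower with gRNA 2 as a block, described further on. Genes with near-identical copies (AKR1C, ribosomal protein and zinc finger genes, UBB) are uncertain, since the counting could have split their reads. FABP4, a fatty acid carrier, was 185, 170 and 204 CPM against 4.64, 3.03 and 4.81, and RBP4, a retinol carrier, had 220, 247 and 263 counts against 5492, 5211 and 5614.

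Cell cycle genes gave a smaller picture. Of 41 mitosis genes, 27 were higher and 7 lower with gRNA 2 (median 0.26), and of 45 replication genes 14 were higher and 18 lower (median 0.00). Over all genes 36.5% were higher and 36.9% lower, so the replication genes lay near the background. FOXM1, which drives mitotic transcription, was 161 ± 6.46 CPM against 76.0 ± 1.96, while the mitotic kinase gene AURKA was 66.5 ± 1.97 against 163 ± 1.80. TYMS, thymidylate synthase, was 70.4 ± 1.12 CPM against 241 ± 9.95.

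Differences were arranged in blocks along chromosomes. Chromosome 18 had the lowest median log2 fold change, -0.80, with 146 of 213 genes called lower (68.5%, background 36.9%) and 42 higher. Chromosome 16 followed at -0.26, and chromosome 14 was the highest at 0.27. Windows of 25 neighbouring genes were then read along each chromosome, and runs of at least 10 windows with a median at or beyond 0.75 in either direction gave 18 segments, 7 higher and 11 lower with gRNA 2. These segments were chosen by the same fold changes, so their medians, 0.63 to 1.05 in absolute value, are a description. The threshold was itself chosen on these data, and 0.5 gave 57 segments and 1 gave 10. The 18 segments held 1126 of the genes tested (7.65%) and 19.7% of the genes called with a log2 fold change of at least 1. A higher share of large changes is built into the choice of segments, so it is a description and not evidence of clustering. Against the shared controls, the gRNA 10 median lay farther from control than the gRNA 2 median in 14 of the 18. From HOXC8 to PPM1H on chromosome 12 it was 0.03 for gRNA 2 and 0.85 for gRNA 10. From ELMO2 to ADRM1 on chromosome 20 it was -0.15 and 0.89. From LIPG to CDH7 on chromosome 18, a segment of the other kind, it was -0.63 and 0.07.

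Adjacent segments could differ in sign. Over all genes 36.5% were called higher and 36.9% lower. The larger shares within segments follow in part from how the segments were chosen. On chromosome 12 (GRCh38), the stretch from HOXC8 to PPM1H (54009106 to 62935037) had 81 of 100 genes called lower and a median of -0.89, and the stretch from CAND1 to ELK3 (67269281 to 96269835) had 75 of 83 called higher and a median of 0.78. In the first, the tetraspanin gene CD63 was 419 ± 12.96 CPM with gRNA 2 and 1651 ± 35.9 with gRNA 10. In the second, the histone chaperone gene NAP1L1 was 633 ± 22.7 against 263 ± 8.46. On chromosome 18, the stretch from ROCK1P1 to GAREM1 (109065 to 32470484) had 75 of 94 called lower (median -0.95), with the myosin light chain gene MYL12A at 87.2 ± 0.620 against 288 ± 8.72 CPM. On chromosome 20, the stretch from ELMO2 to ADRM1 (46366049 to 62308862) had 61 of 83 called lower (median -1.01), and GNAS, the stimulatory G protein subunit gene, was 761.7 ± 16.9 against 2425 ± 118 CPM. On chromosome 17, the stretch from ADPRM to TMEM97 had 61 of 82 called lower (median -0.91), with the ubiquitin gene UBB at 276 ± 8.09 against 715 ± 38.7 CPM. On chromosome 14, the stretch from EXOC5 to GOLGA5 had 166 of 193 called higher (median 0.95). The stretch of zinc finger genes on chromosome 19 from CILP2 to ZNF254 had a median of -0.81 over 40 genes, or -0.01 over those with at least 10 counts in every PC3 library. DNA copy number was not measured in these files, and its part in these blocks was not tested.

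**Figure D4:**
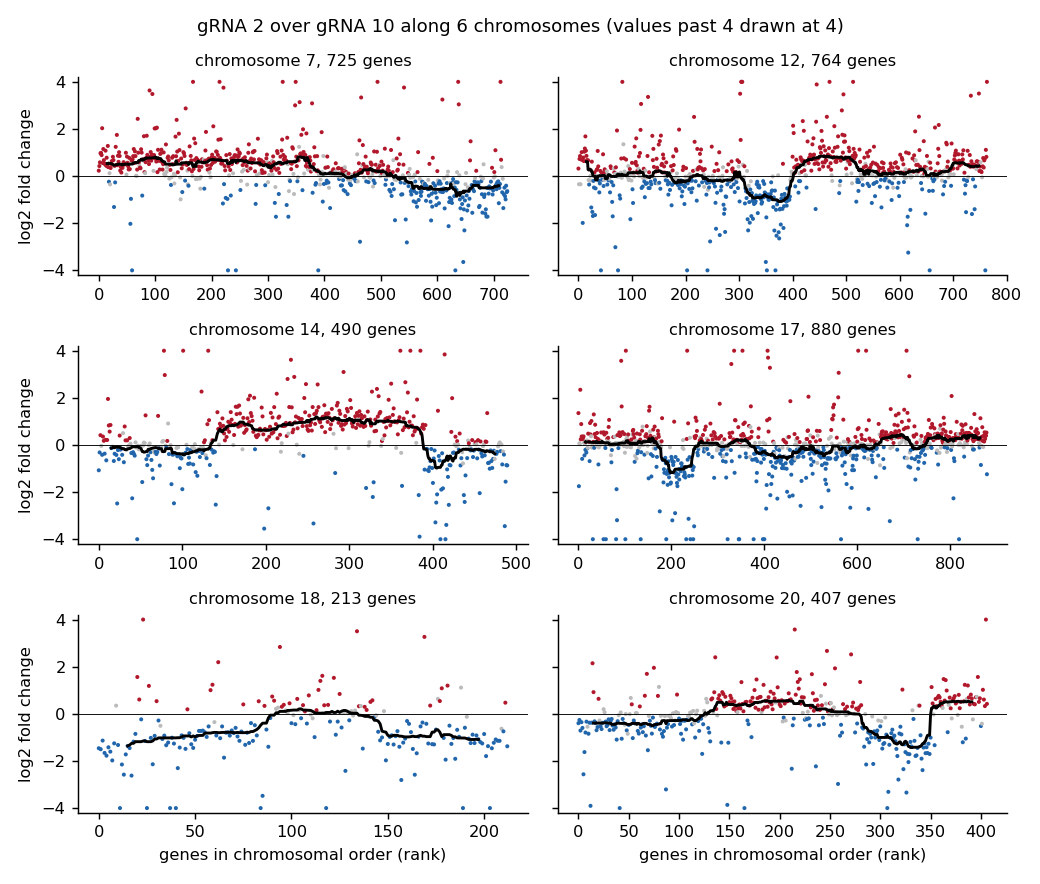
Log2 fold change of gRNA 2 over gRNA 10 (y axes, values past 4 drawn at 4) of genes in their order along 6 chromosomes (x axes, rank), red where called higher, blue where called lower, grey where not called, with the running median of 31 genes as a black line. The line steps down and then up on chromosome 12, lies high over most of chromosome 14, and lies low at both ends of chromosome 18 but near 0 in its middle.

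Several named genes lay in such segments, some of them against the direction of most of their list. RPL41 and RPS26, the ribosomal protein genes that were lower with gRNA 2, both lay in the HOXC8 to PPM1H stretch, as did CDK4 and PA2G4 of the ribosome assembly and MYC list (log2 fold changes -0.52 and -0.47) and ATP5F1B, an ATP synthase subunit gene (-0.79). Of the mitosis list, AURKA lay in the chromosome 20 segment and the kinetochore gene NDC80 in the first chromosome 18 segment, both lower with gRNA 2. TYMS, of the replication list, also lay in the latter. On chromosome 10, AKR1C1, AKR1C2, AKR1E2 and CALML3-AS1 lay in the stretch from ZMYND11 to CAMK1D (median -0.80 over 43 genes). Other named genes went against their own segment. ATP5F1C was higher with gRNA 2 (log2 fold change 1.19) in that same stretch. SLC47A1 was higher (7.84) in the lower stretch of chromosome 17, and BCL2 (0.35) in the lower stretch from ZCCHC2 to PARD6G on chromosome 18. Outside the segments, 38 of 44 interferon genes were called lower and 3 higher (median -1.80), 71 of 76 ribosomal protein genes higher and 0 lower (0.78), and 28 of 31 ATF4 genes lower and 2 higher (-0.54). No member of the S100, keratin, NF-kB or collagen lists lay in a segment.

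The same pair of guides in DU145 gave a different set of differences. In DU145, 5789 of 14908 genes (38.8%) were called between gRNA 2 and gRNA 10, with a common biological coefficient of variation of 12.3%. DU145 and PC3 share no library. Of 13472 genes tested in both lines, 3998 were called in both, which is 40.2% of the PC3 calls and 78.0% of the DU145 calls. Over all 13472, DU145 called 38.1% and PC3 73.7%, so these shares lie near the background. Of these, 2030 had the same direction and 1968 the opposite (50.8% the same), and among the 470 with a log2 fold change of at least 1 in both, 235 had the same direction. Over the 13472 genes, Pearson's r between the log2 fold changes of the lines was 0.03 and Spearman's rho 0.01, given as a description across genes. Replicate 3 of DU145 gRNA 2 stood apart in its mitochondrial share (2.89%, against 1.75% and 2.12%), and without it 5003 genes were called in both lines, 48.0% in the same direction, and r was -0.00104. The difference between the lines was tested in one model of 18 libraries, where 8067 of 15764 genes (51.2%) were called.

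**Figure D5:**
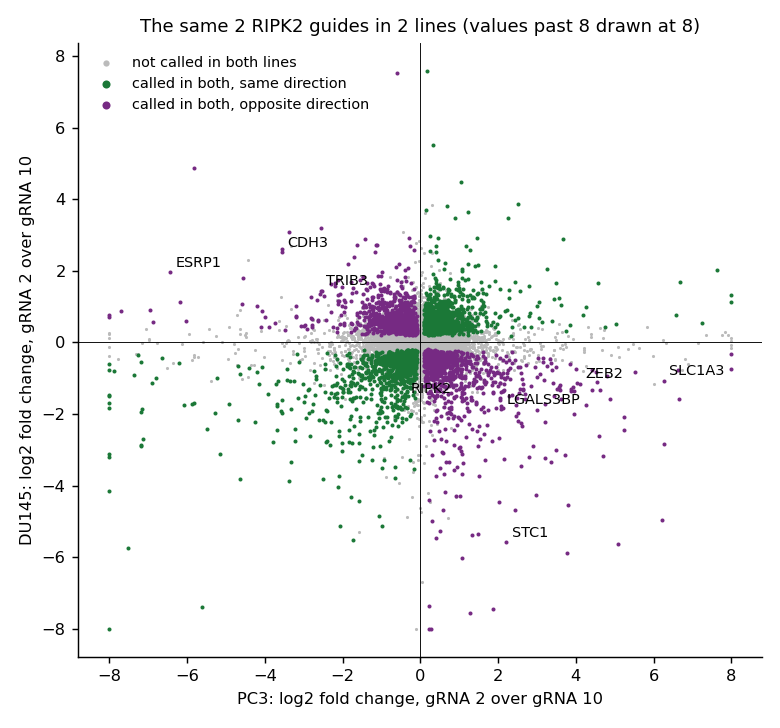
Log2 fold change of gRNA 2 over gRNA 10 in PC3 (x axis) and in DU145 (y axis), 1 point per gene tested in both lines, values past 8 drawn at 8, green where called in both in the same direction, purple where called in both in opposite directions and grey otherwise. The points spread over all 4 quadrants, with 2030 green and 1968 purple.

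By list, 18 of 38 interferon genes tested in DU145 were called lower with gRNA 2 (background 19.6%) and 2 higher, with a median of -0.53 there, and 32 of 48 differed between the lines (background 51.2%). The ATF4 list went in opposite directions. In DU145, 29 of 36 members were called higher (background 19.2%) and 1 lower (median 0.82), and 32 of 36 differed between the lines. TRIB3 was the clearest case, at a log2 fold change of -2.57 in PC3 and 1.45 in DU145, a difference of -3.99 (edgeR adjusted p = 4.79e-16). Ribosomal protein genes, with 72 of 79 higher in PC3, had 4 higher, 5 lower and a median of -0.01 in DU145, and 60 of 79 differed between the lines. Of the 47 genes of ribosome assembly and MYC output, 22 were called higher with gRNA 2 in DU145 and 1 lower, with a median of 0.43, and MYC had a log2 fold change of 0.53 there. RIPK2 itself differed between the guides by -0.40 in PC3 and -1.56 in DU145 (difference 1.18, edgeR adjusted p = 3.44e-07). Of the 18 segments, 6 had a DU145 median of the same sign as in PC3, and the DU145 medians did not exceed 0.67 in absolute value.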

How the data were processed

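RNA libraries were strand-specific mRNA libraries read as paired ends of 150 bases, per the labels' protocols. The authors deposited raw read counts per gene symbol, 1 table per line, per the file headers. The submitters' processing notes list FastQC, STAR, edgeR and hg38 with no roles or versions, and the counting program and annotation are not given in the sources used here. There were 23464 rows for PC3 and 23534 for DU145. Symbols listed more than once (2 in each) were summed.

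The counts were fitted with edgeR 4.0.16 in R 4.3.3, with TMM factors, filterByExpr (minimum count 10, minimum total 15) and the robust quasi-likelihood test (two-sided). The 9 PC3 libraries shared 1 fit with group as its term, and 18 libraries were fitted jointly for the difference between lines. Adjusted p-values are Benjamini-Hochberg over all genes in a contrast. CPM values were computed here from the counts and TMM factors, and a floor of 3 counts equals 0.144 to 0.150 CPM in PC3, for counting error only. Replicates differed by more than sampling noise (chi-square per degree of freedom 2.16 to 4.04), so none was counted as a duplicate. Positions came from GENCODE 29 (GRCh38) or RefSeq. On counts simulated with each line's own common dispersion and 200 changed genes, the PC3 contrast recovered 86% at a fold of 1.5 (14294 genes, 15 false calls) and 95.5% at a fold of 2 (14293 genes, 7 false calls), and the joint model 82.5% at a fold of 2 (14753 genes, 2 false calls). In the data most genes were called and the spread was fitted per gene, so these false calls do not measure those among the reported calls.

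The genes named were RIPK2, NOD1, NOD2, MAP2K7, MYC and, among called genes with a mean of at least 100 counts in the higher group and no overlap, up to 6 off genes and 8 others per direction, up to 2 per direction in each list and 3 per segment; others are marked in the text as picked after their values were seen. The comparison, the 37 lists and these rules were chosen with earlier results of these data known. The rule for segments, the split of lists by segment and the choice of which differences between lines to report were made on these values. Alternatives were RLE factors, DESeq2 1.42.0, other filters, fewer libraries and a replicate block, and, after seeing the data, DU145 without 1 library and other segment thresholds. Some results are not reported here.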

Additional observations from a re-analysis of the deposited data

Results flagged for a closer look

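For 14 of the genes described, the difference between gRNA 2 and gRNA 10 was not the same in PC3 and DU145 in edgeR's joint model of 18 libraries. Of 155 named genes with such a test, 123 were called, so a difference between the lines was the usual outcome. The 14 were picked from these after their values were seen, as RIPK2 and the genes with opposite directions. Among the 155, 13 changed sign in at least 1 alternative fit, 29 values in all. Of the 123 called, 0 changed sign and 8 lost the call in at least 1. For RIPK2 the lines differed by 1.18 on the log2 scale (PC3 minus DU145), with the same direction in both. The other 13 were called in opposite directions with a log2 fold change of at least 1 in each line. Among epithelial and mesenchymal genes, the difference was -8.37 for ESRP1, -6.05 for CDH3 and 5.28 for ZEB2. Of the stress response genes, it was -6.32 for CBS, -3.99 for TRIB3 and -3.92 for PMAIP1, which encodes the BH3-only protein NOXA. The hypoxia-responsive genes STC1 and CA12 differed by 7.79 and 2.74. The transporter genes SLC6A11 and SLC1A3 differed by 11.22 and 7.35. LGALS3BP differed by 3.96, the guidance factor gene SEMA3D by 6.48 and the basement membrane collagen gene COL4A1 by 2.86. All 14 had the same direction and stayed below an adjusted p of 0.05 in each of the 17 alternative fits. The causes were not tested.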

How the results depend on the processing

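Genes called between the populations numbered 9704 to 11388 over 15 alternatives, against 10799, and 89.6% to 99.9% of the 10799 were called in each, with 0 changed in sign. The lowest count came from requiring 10 counts in every library, which tests fewer genes, and DESeq2 called 10073. Calls with a log2 fold change of at least 1 were 1631 under that filter and 2533 to 3327 otherwise, against 2613. The labels do not state that the replicate numbers pair the samples. Deviations of libraries with the same title number correlated at -0.0395, 0.0369 and -0.0494. With 3 libraries per group, these values cannot show whether a pairing exists. With the number as a replicate block, 10903 genes were called, 2616 with a log2 fold change of at least 1, and 7838 between the lines against 8067. Calls between the lines ranged from 7152 to 9306, and DU145 calls from 4102 to 7266 without 1 library, against 5789. DESeq2 did not call MAP2K7, nor did 3 fits without 1 library, and such fits lost ERMP1 (3 fits), TNIP1 (1) and BCL2 (1). No named gene's fold change in PC3 changed sign. List medians that did were those of proteases (0.0795; -0.0198 with 10 counts in every library, and -0.00754 to 0.154 without 1 library), cancer testis antigens (-1.02; 1.32 with 10 counts in every library) and p53 targets (-0.135; -0.164 to 0.0170 without 1 library). Medians near 0 also crossed it: those of replication genes (-0.0038; -0.036 to 0.054), the BCL2 family (0.022; -0.074 to 0.050), WNT genes (-0.0082; -0.050 to 0.016), chromosome 8 (-0.0021; -0.0080 to 0.017) and chromosome 21 (0.00070; -0.036 to 0.0097). The chromosome 19 segment fell to -0.00989 with 10 counts in every library. Pearson's r between the lines went from 0.0277 to -0.00104 without DU145 gRNA 2 replicate 3. Apart from the filter, the causes were not tested. DU145 replicates spread more widely than those of PC3, which limits what the comparison of lines can show.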

Other observations

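Further gene groups are read against 36.5% of all genes called higher and 36.9% lower with gRNA 2. Cholesterol synthesis and uptake genes were lower with gRNA 2 at 14 of 25 and higher at 4 (median -0.20), with the squalene synthase gene FDFT1 at 46.7 ± 1.91 against 106 ± 2.00 CPM (SD, n = 3, in a segment of chromosome 8 that was lower with gRNA 2) and INSIG1, which holds back sterol synthesis when sterols are high, at 18.9 ± 1.74 against 41.9 ± 1.40. Against the shared controls, the list's median was -0.49 for gRNA 2 and -0.26 for gRNA 10. Among DNA methylation writers, readers and erasers, 11 of 15 were higher and 3 lower (median 0.30), and the demethylase genes TET3 and TET1 were 33.7 ± 2.25 against 13.3 ± 1.76 and 5.66 ± 0.274 against 2.70 ± 0.264 CPM. In the BCL2 family, which controls release of mitochondrial death signals, 4 of 16 were higher and 7 lower, and PMAIP1, which lies in a chromosome 18 segment, and BAK1 were 16.3 ± 0.634 against 98.1 ± 9.73 and 64.5 ± 1.17 against 157 ± 8.06 CPM. BMF of the same family was higher with gRNA 2 (log2 fold change 0.82 to 0.94 over 15 alternative fits), and the highest log2 fold change in the family was 3.48. Collagens were higher at 14 and lower at 8 of 27, and COL6A3 was 127 ± 6.98 against 14.9 ± 1.83 CPM, the latter near its control level of 15.7 ± 0.943.

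The cancer testis antigen genes, normally silent outside the germ line, were tested at 9 of 22 listed in the table. MAGEA3, which has near-identical copies and is uncertain for that reason, was 50.7 ± 0.652 CPM with gRNA 2, 11.6 ± 0.591 with gRNA 10 and 1.34 ± 0.129 in the controls, while MAGEA11 was at least 53.4-fold lower with gRNA 2 than with gRNA 10. PECAM1, an endothelial adhesion gene, had 177 to 197 counts with gRNA 2, 121 to 161 with gRNA 10 and 34 to 45 in the controls, while the endothelial genes CDH5 and VWF had 0 to 2 counts in all 3 groups.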
